A study of Mus musculus with 6 samples.

Results

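Glycogen is the stored form of glucose, and 9 genes of its turnover and of insulin-dependent glucose entry were followed in RNA-seq libraries of mouse chondrocytes from WT and Ppp1r15b KO mice. They are Slc2a4, the glycogen phosphorylases Pygl and Pygb, the synthesis genes Gyg, Ugp2, Gys1 and Gbe1, and the glycogen-binding proteins Ppp1r3c and Stbd1. The genes were taken by symbol from a table of 17666 genes, all 9 were found, and all 9 passed the filter on low counts among 13692 genes tested. They were named for their roles with results of this same comparison already known, so their differences between the groups are given as a description and support nothing by themselves. Sorted chondroprogenitors came from digested knee joints of newborn mice (P0), selected by the green fluorescence of the reporter, and were grown in DMEM until mature. WT mice were Prx1-Cre;Rosa26mT/mG and KO mice were Ppp1r15bPrx1;Rosa26mT/mG, with 3 libraries each, so Prx1-Cre and the reporter were present in both groups. Prx1-Cre recombines in the early mesenchyme of the limb, and so marks more lineages than cartilage. Separate animals or cultures are not stated for the replicates, and the p-values then reflect only how these samples vary, which may be technical.

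Slc2a4 encodes GLUT4, the glucose transporter that insulin moves from internal vesicles to the surface of fat and muscle cells. Inside the cell, glucose becomes glucose 1-phosphate, which UGP2 turns into UDP-glucose, glycogenin (Gyg) uses UDP-glucose to prime a new particle, glycogen synthase (Gys1) lengthens the chains and the branching enzyme (Gbe1) adds branch points. Glycogen phosphorylase releases glucose 1-phosphate again, and its liver, brain and muscle isoenzymes are encoded by Pygl, Pygb and Pygm. Growth plate chondrocytes are known to store glycogen.

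The libraries held 18380880 to 19643951 estimated counts. Ppp1r15b itself lay at 86.7, 52.2 and 89.2 CPM (counts scaled to the library total after TMM normalisation) in WT replicates 1 to 3. It lay at 19.3, 23.5 and 27.5 CPM in KO replicates 1 to 3, so 0.308 times the WT mean remained. WT replicate 2 stood at 0.594 times the mean of the other WT libraries. The deleted stretch is not named in the labels, so these counts check the genotype only in part. The chondrocyte label was checked against cartilage collagen, and Col2a1 lay between 25043 and 35312 CPM in the 6 libraries. Libraries of a group were not alike. Across genes, log2 CPM correlated at r = 0.9935 between KO replicates 1 and 2 but at 0.9346 and 0.9337 between these and KO replicate 3, and at 0.9938 between WT replicates 1 and 3 but at 0.9823 and 0.9819 between these and WT replicate 2. Between the groups, KO replicate 3 correlated at 0.9417, 0.9515 and 0.944 with WT replicates 1 to 3, above its values with the other KO libraries. KO replicates 1 and 2 correlated at 0.965 and 0.9631 with WT replicate 2, also above their values with KO replicate 3. KO replicate 3 and WT replicate 2 are therefore named beside each result they touch.

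Slc2a4 and Pygl fell in KO, Slc2a4 to 16.1% of its WT mean and Pygl to 51.0%. The other 7 genes were not called over the 6 libraries. In 4 of those 7 KO replicate 3 stood more than 1.5 times apart from the other KO libraries. The fit over all genes (edgeR quasi-likelihood test, Benjamini-Hochberg adjustment, adjusted p under 0.05) thus called 2 of 9 members lower and 0 higher. Over all 13692 genes tested it called 2.51% in either direction, 1.63% lower and 0.884% higher. At an unadjusted p under 0.05 the count was 2 lower and 1 higher, beside 9.9% and 9.29% of all genes. DESeq2 called 2 lower and 1 higher, beside 4.92% and 3.63% of all genes (8.55% together), and Gyg was the higher one in both counts. The median log2 fold change was -0.17 over the 9 members and 0.0051 over all genes tested. The groups did not overlap in 4 of 9 members, Slc2a4, Pygl and Ppp1r3c with KO below and Gyg with KO above, beside 28.4% of all genes tested (14.5% below and 14.0% above).

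**Figure D1:**
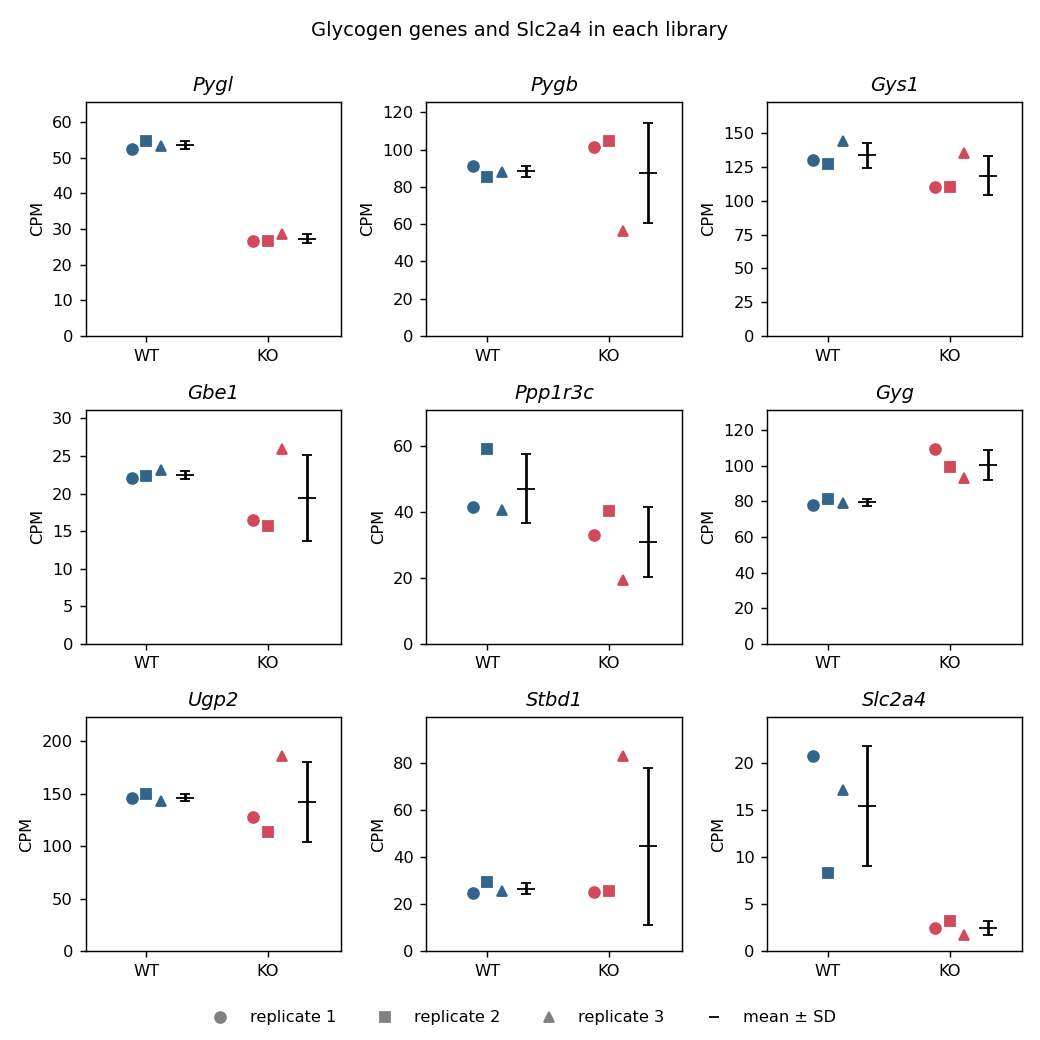
CPM of the 9 genes in each library, 1 panel per gene with its own axis from 0, with the mean ± SD (n = 3) beside the points. Pygl sits near 53 in WT and near 27 in KO with little spread, whereas KO replicate 3 (triangles) is set apart from the other KO libraries in Stbd1, Gbe1, Pygb and Ppp1r3c.

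Slc2a4 (Entrez gene 20528, chromosome 11 from 69942286 to 69948216 in GRCm38.p6) had 20.7, 8.32 and 17.1 CPM in WT replicates 1 to 3. It had 2.5, 3.18 and 1.73 CPM in KO replicates 1 to 3. Every KO library thus lay below every WT library, and WT replicate 2 was the lowest of its group, at 0.441 times the mean of the other WT libraries. The estimated counts behind these values were 407, 153 and 321 in WT and 46, 58 and 35 in KO. Mean CPM was 15.4 ± 6.36 in WT against 2.47 ± 0.726 in KO (SD, n = 3 each). The log2 fold change was -2.64 with an SE of 0.407 and an edgeR adjusted p of 0.0369. It was -2.43 with KO replicate 3 left out (adjusted p = 0.004) and -2.93 with WT replicate 2 left out (adjusted p = 0.0258). Leaving out any of the remaining libraries ended the call, with an adjusted p between 0.116 and 0.191, as did limma-voom (-2.59, adjusted p = 0.0734).

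In such mixed RNA, fewer cells of a type and less RNA per cell cannot be told apart. Fat and muscle are the tissues in which GLUT4 is best known. Adipocyte and macrophage marker sums did not overlap between the groups, and adipocyte, muscle and macrophage markers all varied with single libraries. The 10 adipocyte markers summed to 949, 484 and 842 CPM in WT and to 62.7, 63.4 and 107.6 CPM in KO, with 8 of 9 tested markers lower, 9 of 10 without overlap of the groups, and Lep at 0 in every KO library. The 12 skeletal muscle markers summed to 705, 91.2 and 628 CPM in WT and to 17.9, 17.5 and 255 CPM in KO, with 0 of 12 called (edgeR, adjusted p under 0.05) and 0 without overlap. Without KO replicate 3 every muscle marker was called lower (edgeR adjusted p from 0.00592 to 0.024), as were 16.1% of all genes. The 10 macrophage markers summed to 347, 193 and 349 CPM in WT and 15.5, 15.7 and 145.6 CPM in KO. Of the macrophage markers 2 were lower, and 9 of 10 did not overlap. The 13 chondrocyte markers, mostly Col2a1 by level, summed to 37212 to 50029 CPM in WT and 41244 to 42758 CPM in KO, with 2 called higher and 5 with every KO library above every WT library. The sort on green fluorescence should not pass blood-lineage cells or muscle fibres, which do not descend from the mesenchyme that Prx1-Cre marks. Macrophage and muscle markers were counted in every library all the same, and the purity of the sort was not tested. WT replicate 2, low in Slc2a4, was low in adipocyte, muscle and macrophage markers. KO replicate 3 held the highest adipocyte, muscle and macrophage marker sums of its group and had the lowest Slc2a4 of all 6. Of its adipocyte sum of 107.6 CPM, Plin4 alone gave 72.8 CPM, against 30.7 and 33.9 CPM in KO replicates 1 and 2. The part of other cell types in the fall of Slc2a4 was not tested.

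**Figure D2:**
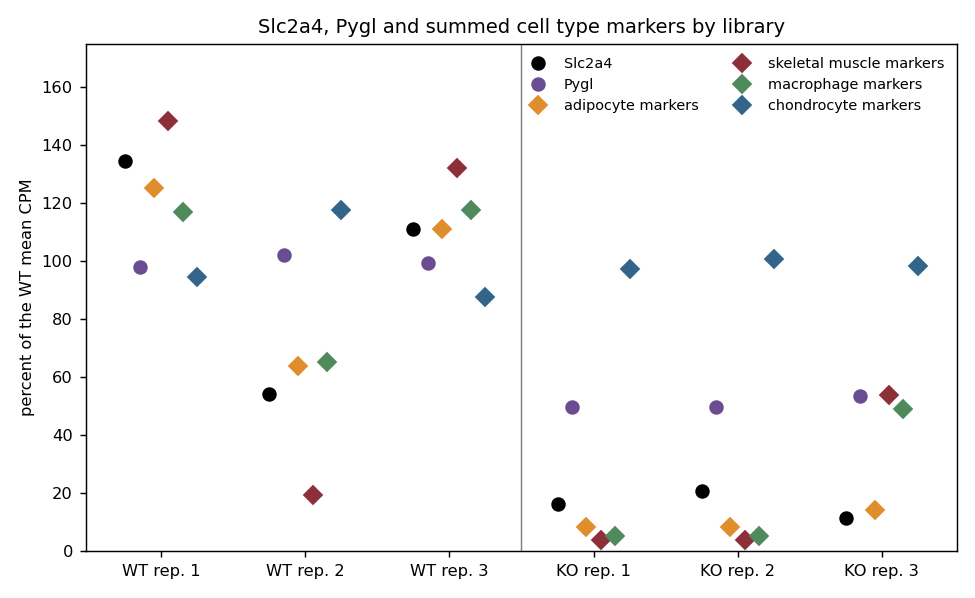
Slc2a4, Pygl and the summed CPM of 4 marker lists in each library, as a percent of the WT mean, with points offset sideways for legibility. In WT replicate 2 Slc2a4 stood at 54.2% and adipocyte markers at 63.9% of the WT mean, while Pygl stood at 102%.

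Pygl (Entrez gene 110095, chromosome 12 from 70190815 to 70227683), the liver-type phosphorylase, behaved more evenly. Its CPM was 52.5, 54.7 and 53.2 in WT replicates 1 to 3. In KO replicates 1 to 3 the values were 26.6, 26.6 and 28.7. The groups were far apart beside a spread of 2.12% of the mean in WT and 4.42% in KO. Mean CPM was 53.5 ± 1.13 in WT against 27.3 ± 1.21 in KO (SD, n = 3 each). The log2 fold change was -0.97 with an SE of 0.0664 and an edgeR adjusted p of 0.0112. WT replicate 2, which held the fewest adipocyte, muscle and macrophage marker counts of its group, had the highest Pygl of the 6 libraries. KO replicate 3, with its higher adipocyte, muscle and macrophage marker sums, had 1.08 times the mean Pygl of the other KO libraries. The part of adipocytes, muscle cells and macrophages in the Pygl result was not tested. The 6 markers of hypertrophic chondrocytes also moved with the groups, from 1104 to 1192 CPM in the WT sums against 448, 448 and 997 CPM in KO replicates 1 to 3, with 3 of 5 tested markers lower, and their part in the Pygl result was not tested. The estimate stayed between -1.01 and -0.95 when each library was left out in turn, but the adjusted p was 0.0812 to 0.11 when the library absent was replicate 1 or 3 of WT, or replicate 1 or 2 of KO. In those 4 fits no gene of the table was called.

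Pygb (Entrez gene 110078, chromosome 2 from 150786796 to 150831748), the brain-type phosphorylase, had 91.4, 85.5 and 88.1 CPM in WT. It had 101.2, 105 and 56.5 CPM in KO. KO replicates 1 and 2 were thus above every WT library and KO replicate 3 below every one, and the log2 fold change over the 6 libraries was -0.015 (SE 0.23, edgeR adjusted p = 0.985). With KO replicate 3 absent the estimate was 0.22 (adjusted p = 0.0295). Pygm, the muscle isoenzyme and no member of the set, had 13.1, 2.88 and 12.7 CPM in WT and 1.58, 1.04 and 4.05 CPM in KO, and was not called (-2.09, SE 0.729, edgeR adjusted p = 0.199).

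Set per length, as TPM (transcript abundance scaled for length and depth), the phosphorylase transcripts shifted in makeup. Pygl took 39.7%, 45.6% and 40.9% of the summed TPM of Pygl, Pygb and Pygm in WT replicates 1 to 3. It took 26.0%, 25.5% and 38.8% in KO replicates 1 to 3. All 3 KO values lay below the WT values, KO replicate 3 narrowly so. Pygb took 50.7 ± 1.30% of the WT sum against 67.2 ± 9.9% of the KO sum (SD, n = 3 each), and the sum of the isoenzymes was 100.6 ± 7.83 TPM in WT and 75.1 ± 13 TPM in KO.

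Among the synthesis genes, Gyg (Entrez gene 27357, chromosome 3 from 20122083 to 20155117), the primer of new glycogen particles, was the only member with every KO library above every WT library. It had 77.7, 81.5 and 79.2 CPM in WT replicates 1 to 3. It had 109.8, 99.2 and 92.9 CPM in KO replicates 1 to 3. The KO level was 1.27 times the WT level, or 0.34 on the log2 scale (SE 0.0802), and it was not called over the 6 libraries (edgeR adjusted p = 0.091) though it was by DESeq2 (adjusted p = 0.0118). With KO replicate 3 absent the estimate was 0.40 (edgeR adjusted p = 0.00349).

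The promoters of Pygl, Gyg and Ppp1r3c are shown because these are the glycogen genes whose groups did not overlap, Gyg in the opposite direction to the other two. Each run is the 250 bases before the RefSeq start in GRCm38.p6, 5′ to 3′ on the strand of the gene, and capitals mark matches on either strand to the E-box CACGTG, the GC box GGGCGG and the CCAAT box.
Pygl, chr12:70227684-70227933, minus strand: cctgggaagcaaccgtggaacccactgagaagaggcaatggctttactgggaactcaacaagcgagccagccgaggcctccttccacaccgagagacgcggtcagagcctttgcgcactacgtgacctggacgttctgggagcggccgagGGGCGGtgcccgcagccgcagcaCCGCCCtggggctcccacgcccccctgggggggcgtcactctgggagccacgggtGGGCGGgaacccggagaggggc
Gyg, chr3:20155117-20155366, minus strand: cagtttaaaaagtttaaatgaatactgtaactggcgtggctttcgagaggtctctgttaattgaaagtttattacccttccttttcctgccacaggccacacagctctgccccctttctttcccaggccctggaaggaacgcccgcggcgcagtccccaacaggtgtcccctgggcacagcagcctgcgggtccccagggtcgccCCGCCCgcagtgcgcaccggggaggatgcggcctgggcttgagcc
Ppp1r3c, chr19:36736605-36736854, minus strand: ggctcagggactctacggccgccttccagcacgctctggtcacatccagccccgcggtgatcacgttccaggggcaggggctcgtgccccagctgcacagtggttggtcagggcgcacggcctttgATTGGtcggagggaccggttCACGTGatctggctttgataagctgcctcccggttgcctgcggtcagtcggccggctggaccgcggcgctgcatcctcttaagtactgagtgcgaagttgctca
The Pygl window held 3 GC boxes and the Gyg window 1, while the Ppp1r3c window held an E-box 104 bases and a CCAAT box 124 bases before the start. Windows were found for 8 of the 9 genes, 9 windows in all, since Ugp2 has a pair of starts. A GC box stood in 6 of those 9 windows and in 32.7% of all 32851 windows, a CCAAT box in 3 and in 33.8%, and an E-box in 1 and in 6.02%. The composite element of ATF4 and C/EBP factors (TGATGNAA) was in 0 of the 9 and in 3.45% of all windows, and TATAAA in 0 and in 12.4%. A match is a run of letters only and was not tied to binding.

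Ugp2 (Entrez gene 216558, chromosome 11 from 21321126 to 21371267), which makes UDP-glucose, had 146, 149 and 143 CPM in WT. It had 128, 113 and 186 CPM in KO. The WT libraries fell between KO replicates 1 and 2 below and KO replicate 3 above, and the log2 fold change was -0.038 (SE 0.184, edgeR adjusted p = 0.94). Gbe1 (Entrez gene 74185, chromosome 16 from 70313949 to 70569720), the branching enzyme, followed the same order, with estimated counts of 434, 411 and 434 in the WT libraries and of 304, 285 and 526 in the KO libraries. Mean CPM was 22.5 ± 0.546 in WT against 19.4 ± 5.75 in KO (SD, n = 3 each), and the log2 fold change was -0.21 (edgeR adjusted p = 0.631, SE 0.205). Without KO replicate 3 both were called lower, Ugp2 at -0.27 (adjusted p = 0.0202) and Gbe1 at -0.48 (adjusted p = 0.0037).

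Gys1 (Entrez gene 14936, chromosome 7 from 45434839 to 45456617), glycogen synthase of muscle and most other tissues, had 130, 127 and 144 CPM in WT. It had 110.5, 110.4 and 135 CPM in KO. KO replicates 1 and 2 lay below all WT libraries and KO replicate 3 among them, and the log2 fold change was -0.17 (edgeR adjusted p = 0.437, SE 0.106), or -0.27 with KO replicate 3 left out (adjusted p = 0.0265). Gys2, the liver synthase, had 2 counts in WT replicate 1 and 0 in the other 5 libraries. The gene span of Gys1 overlaps that of Ruvbl2, and Gys1 was the only member whose estimated counts were not whole, in all 6 libraries, so its level is uncertain. Whether reads were split between these genes was not tested, and Ugp2, which overlaps Vps54 and Mir1933, had whole counts.

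Of the glycogen-binding proteins, Ppp1r3c (Entrez gene 53412, chromosome 19 from 36731731 to 36736604) brings protein phosphatase 1 to glycogen, where the phosphatase activates the synthase and switches off the phosphorylase. Like the product of Ppp1r15b it is a regulatory subunit of that phosphatase. It had 41.7, 59.4 and 40.6 CPM in WT and 33.0, 40.3 and 19.5 CPM in KO. The groups did not overlap, but by a margin of under 1 CPM between KO replicate 2 and WT replicate 3. The spread was wide in both groups, with mean CPM of 47.2 ± 10.6 and 31.0 ± 10.6 (SD, n = 3 each). The log2 fold change was -0.61 (edgeR adjusted p = 0.32, SE 0.289), and the gene was not called with any single library left out (adjusted p from 0.154 to 0.609). The estimate was -0.36 when KO replicate 3 was absent and -0.17 when WT replicate 2 was absent as well.

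Stbd1 (Entrez gene 52331, chromosome 5 from 92603051 to 92606579) encodes a starch-binding-domain protein that tethers glycogen to membranes and takes part in its delivery to lysosomes. It had 24.8, 29.5 and 25.8 CPM in WT and 25.4, 25.5 and 83.1 CPM in KO. A single library carried the whole difference: KO replicate 3 had 3.26 times the mean of the other KO libraries, which lay within the WT range. The log2 fold change was 0.74 over the 6 libraries (SE 0.486, edgeR adjusted p = 0.468). It was -0.065 when KO replicate 3 was absent (adjusted p = 0.609).

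**Figure D3:**
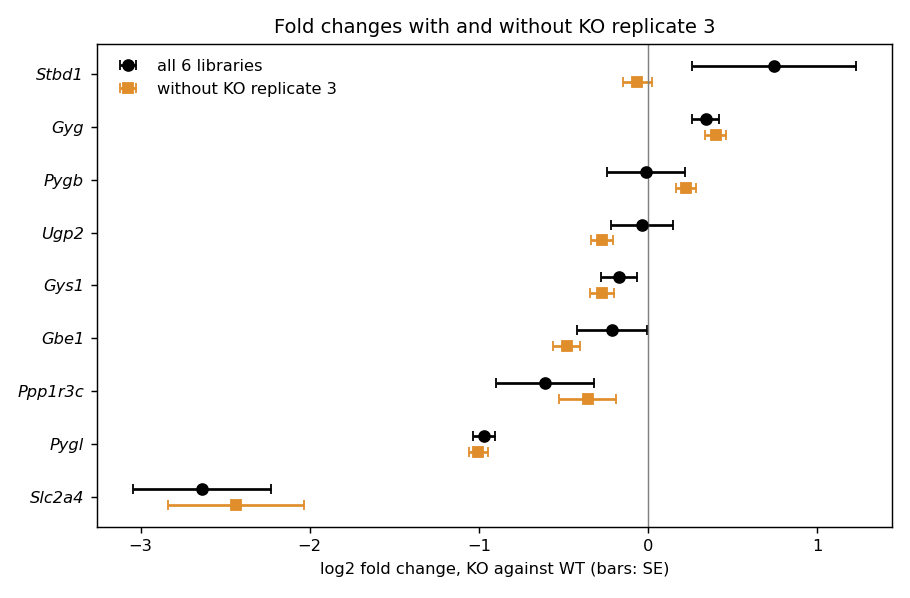
Log2 fold change of KO against WT with its SE for each gene, from all 6 libraries (black circles) and without KO replicate 3 (orange squares). Stbd1 moves from 0.74 to -0.065 and Pygb from -0.015 to 0.22, while Pygl stays at -0.97 and -1.01.

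KO replicate 3 lay more than 1.5 times above the higher, or below the lower, of the other KO libraries in 4 of 9 members (Stbd1 and Gbe1 above, Pygb and Ppp1r3c below), beside 25.8% of all genes tested. Left out, it gave 5 members called lower (Slc2a4, Pygl, Gys1, Gbe1 and Ugp2) and 2 called higher (Pygb and Gyg), where 28.5% of 13880 genes were called, 16.1% lower and 12.5% higher. With WT replicate 2 left out, 2 members were called lower and 0 higher by edgeR (Pygl and Slc2a4), beside 0.999% and 0.266% of 13911 genes. At an unadjusted p under 0.05 these counts were 2 and 1, beside 8.89% and 6.55% of genes. With WT replicate 2 and KO replicate 3 left out together, 5 were called lower and 2 higher, beside 21.7% and 17.5% of 13804 genes. Nothing is read from these counts, since the members were chosen on this contrast and the pair of KO libraries left had little spread. WT replicate 2 lay apart by the same measure in 1 member, Slc2a4, beside 6.68% of all genes.

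**Figure D4:**
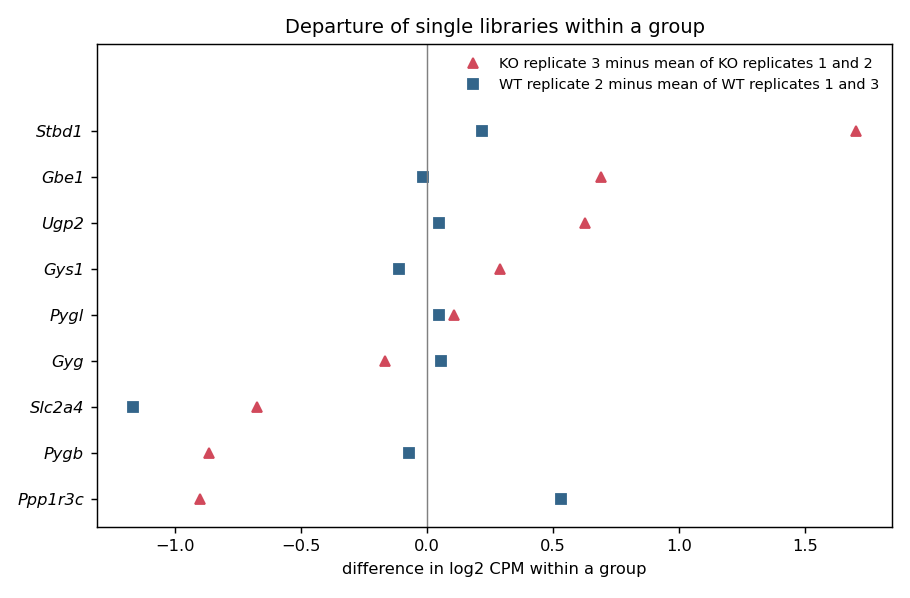
Difference in log2 CPM between KO replicate 3 and the mean of KO replicates 1 and 2 (triangles), and between WT replicate 2 and the mean of WT replicates 1 and 3 (squares), for each gene. Stbd1, Gbe1 and Ugp2 lie to the right and Ppp1r3c, Pygb and Slc2a4 to the left for KO replicate 3, while Pygl lies near 0 for both libraries.

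Per length, Ugp2, Gyg and Gys1 were the most abundant of the 9 genes in both groups by mean TPM, while Gbe1, the other synthesis gene, ranked 8 of 9 in each. In WT, Ugp2 (115 ± 1.84 TPM) and Gyg (104 ± 1.02 TPM) came first, followed by Gys1 (80.5 ± 7.02), Pygb (51.0 ± 3.01), Pygl (42.2 ± 0.386), Ppp1r3c (39.2 ± 7.57), Stbd1 (30.2 ± 1.87), Gbe1 (16.8 ± 0.66) and Slc2a4 (12.8 ± 5.36 TPM; SD, n = 3 each). Neighbours did not overlap in that order except Pygl with Ppp1r3c, Ppp1r3c as well with Pygb through WT replicate 2, and Gbe1 with Slc2a4 through WT replicate 1. In KO, Gyg (135 ± 8.36 TPM) stood first and Ugp2 (115 ± 32 TPM) second, their libraries overlapping, and Slc2a4 (2.07 ± 0.655 TPM) last. Pygl ranked 5 of 9 in WT and 7 of 9 in KO (22.0 ± 1.32 TPM). Slc2a4 lay well below Slc2a1, the gene of the widely expressed GLUT1, in every library. Its TPM was 12.5%, 4.54% and 8.80% of that of Slc2a1 in WT replicates 1 to 3. The value was 1.63%, 2.17% and 0.368% in KO replicates 1 to 3, the last where Slc2a1 itself was at its highest.

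**Figure D5:**
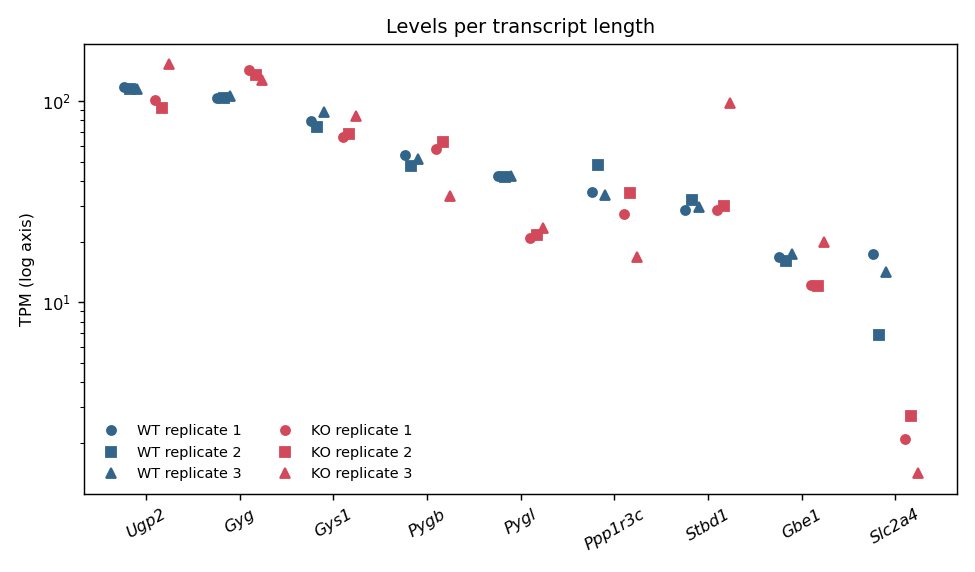
TPM of the 9 genes in each library on a log axis, ordered by the WT mean, with WT in blue and KO in red. Ugp2 and Gyg lead with means of 115 and 104 TPM in WT, and Slc2a4 is last in both groups, at 12.8 and 2.07 TPM.

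Several RefSeq transcripts were counted for 3 of the genes. For Gyg the curated transcript NM_013755.3 took 97.6 ± 2.02% of the WT counts and 98.1 ± 0.566% of the KO counts (SD, n = 3 each). For Ugp2 the transcript NM_001290634.1 took 16.3%, 13.3% and 14.2% in WT replicates 1 to 3. Its share in KO replicates 1 to 3 was 22.6%, 19.2% and 15.2%. KO replicates 1 and 2 were above all WT libraries and KO replicate 3 among them. For Slc2a4 the transcript NM_009204.2 took 50.8 ± 16.2% in WT and 56.9 ± 38.2% in KO, from 27.2% in KO replicate 1 to 100% in KO replicate 3, which at 35 to 58 counts for the gene in KO does not allow a comparison.

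Around these genes, the wider pathway was counted in the same fit. Of 77 tested genes in 8 lists that excluded the members, 1 rose and 3 fell (edgeR, adjusted p under 0.05), beside 0.884% and 1.63% of all genes, and the median log2 fold change was -0.0067. Of these 4, 3 came from the list of transcription factors and coactivators of Slc2a4 and glycogen genes, so their role was set by the list. Ppargc1a, the transcriptional coactivator that induces Slc2a4 in muscle cells, rose from 7.40 ± 0.298 to 17 ± 2.42 CPM (SD, n = 3 each, log2 fold change 1.2, SE 0.141, edgeR adjusted p = 0.0195). Pparg, the nuclear receptor of fat cell formation, fell from 29.7 ± 6.82 to 14.0 ± 0.172 CPM (-1.09, SE 0.175, adjusted p = 0.0404), and Nr1h3, the liver X receptor alpha gene, fell from 10.1 ± 1.92 to 4.86 ± 0.337 CPM (-1.05, SE 0.185, edgeR adjusted p = 0.0486). The other 8 tested genes of that list were not called. Slc2a6, a lysosomal relative of the glucose transporters, fell from 3.86 ± 0.911 to 1.19 ± 0.279 CPM (-1.69, SE 0.299, adjusted p = 0.0489 by edgeR), while the other 8 tested transporters were not called, among them Slc2a1 (0.46, edgeR adjusted p = 0.634). With WT replicate 2 left out, Pparg was still called (adjusted p = 0.0256) and Ppargc1a (0.0586), Nr1h3 (0.0561) and Slc2a6 (0.0727) were not. By limma-voom, Pparg, Nr1h3 and Slc2a6 were all not called. Nr1h3 and Slc2a6 were also not called by the robust fit, without the filter or by library size only. Adipocyte and macrophage marker sums were lower in KO as given above, and their part in these falls was not tested.

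In the other 6 lists 0 genes were called by edgeR, with 4 higher and 6 lower of 57 tested at an unadjusted p under 0.05, which is 17.5% beside 19.2% of all genes. The most abundant of each are given with their values. Of 3 precursor genes, the phosphoglucomutases Pgm2 and Pgm1 had log2 fold changes of -0.052 and -0.048 (edgeR adjusted p = 0.891 and 0.79). Of 9 breakdown genes, the lysosomal glucosidase Gaa, which digests glycogen in lysosomes, was at 0.44 (edgeR adjusted p = 0.0744). Of 8 phosphatase genes, the catalytic subunits Ppp1ca and Ppp1cb were at -0.060 and 0.020 (edgeR adjusted p = 0.689 and 0.914). Of 11 genes of synthase regulation and glycogen quality control, the synthase kinases Gsk3b and Gsk3a were at 0.15 and 0.047 (edgeR adjusted p = 0.308 and 0.863). Of 6 glucose phosphorylation genes, Hk1, a hexokinase, was at -0.095 (adjusted p = 0.833) and G6pc3, a glucose 6-phosphatase, at 0.066 (edgeR adjusted p = 0.815). Of 20 genes of insulin signalling to GLUT4, the kinases Akt1 and Akt2 were at 0.15 and 0.035 (edgeR adjusted p = 0.356 and 0.846). Without KO replicate 3, 11 of 78 tested pathway genes were called higher and 19 lower, where 12.5% and 16.1% of all genes were.

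For each member the 3 genes with the most similar log2 CPM over the 6 libraries were looked up among 11879 genes with a mean log2 CPM above 1. For Slc2a4 these were Spon1 (Pearson r = 0.9984), Rai2 (0.998) and Apoe (0.9966). For Pygl they were the connexin gene Gja1 (0.997), Ak1 (0.9935) and Cryab (0.9925). Stbd1 was nearest to Avil (0.9998), Gbe1 to Cenph (0.9997), Pygb to Pcsk5 (0.999) and Ppp1r3c to Zfp429 (0.9951). Ugp2 was nearest to Larp7 (0.9949), Gys1 to Frmd8 (0.9942) and Gyg to Scyl3 (0.9939). No gene was among the 3 nearest of more than 1 member, and overlap beyond these 3 was not examined. These values describe 6 libraries in which a group difference or a single library sets most of the variation. For Slc2a4 441 genes (3.71%) had an r above 0.9. Across the members this ran from 340 genes (2.86%) for Ppp1r3c to 1062 (8.94%) for Pygb.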

How the data were processed

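RNA-seq tables of 6 libraries, 3 WT and 3 KO by their titles, were used. Per the labels' protocols, reads were aligned with STAR 2.7.5a to mm10 and counted with featureCounts 2.0.0 on GENCODE M25. The deposited tables hold Entrez and RefSeq identifiers instead, so which counter made them is not given here. The deposited estimated counts were not whole in 12.9% of gene values (tolerance 0.004). The deposited TPM values are relative to transcript length and depth, and deposited FPKM values were not used.

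Estimated counts were rounded and filtered (filterByExpr, minimum count 10, minimum total 15). TMM factors and the quasi-likelihood test of edgeR 4.0.16 followed, with group as the one term, two-sided, and p-values adjusted over all 13692 genes (R 4.3.3, limma 3.58.1, DESeq2 1.42.0). The SE is the size of the log2 fold change over the square root of F. The fit was tested on simulated data. Replicates differed by more than sampling noise (chi-square per degree of freedom 2.77 to 109) and were kept separate. TPM and isoform shares were summarised without a test. Log2 CPM used a prior count of 2. Positions and promoters came from RefSeq tables of GRCm38.p6, the assembly behind mm10.

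The members, lists and alternatives were chosen with earlier results of these data known. Named genes were all members, the called genes of each list (up to 4 per direction) or else its 2 most abundant, and for each member the 3 genes with the highest Pearson r, predicted gene symbols left out; 1 gene that this rule names is not reported here. Further genes, the motifs and the 1.5-fold mark for a library apart were chosen after values were seen. Alternatives were other scalings, tests and filters, the replicate number as a block, and libraries left out.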

Additional observations from a re-analysis of the deposited data

How the results depend on the processing

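Over the alternatives run, Slc2a4, Pygl, Gys1, Gbe1, Ppp1r3c and Gyg kept their direction, while Pygb, Ugp2 and Stbd1, none of them called over all 6 libraries, did not. With each library left out in turn, Pygb ran from -0.16 to 0.22 (0.010 without WT replicate 1, 0.22 without KO replicate 3), Ugp2 from -0.27 to 0.11 (0.034 without KO replicate 1, 0.11 without KO replicate 2) and Stbd1 from -0.065 (without KO replicate 3) to 1.03. Pygb was at 0.19 when KO replicate 3 and WT replicate 2 were both absent. Calls are given as edgeR counts unless named. Members called lower (2) were 1 by limma-voom, 0 with the replicate block, 0 to 5 with a library left out and 5 with both absent; members called higher (0) were 1 by DESeq2, 0 to 2 with a library left out and 2 with both absent. Over all genes, 121 higher and 223 lower became 497 and 674 by DESeq2, 1 and 4 with the replicate block and 2416 and 3000 with both absent; the range was 0 to 1731 and 0 to 2231 with a library left out, and 148 were lower with at least 1 CPM in all libraries. Pathway genes (1 higher, 3 lower) were 4 and 9 by DESeq2, 0 and 0 with the replicate block, 15 and 23 with both absent, and 0 to 11 and 0 to 19 with a library left out; lower ones were 1 by library size only, 1 by robust quasi-likelihood, 1 without the filter and 0 by limma-voom. The cause was not tested. With the block, Pygl had an adjusted p of 0.0741 and Slc2a4 of 0.135. Same-numbered libraries correlated in their deviations at -0.14, 0.21 and 0.24, and 3 of 6 libraries correlated best with their own number. With 3 libraries per group these values cannot decide whether the numbers pair the libraries, and the labels do not state a pairing. Isoform shares from TPM differed from those from counts by less than 1 SD. Depth limits Slc2a4 most, at 35 to 58 counts per KO library.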

Other observations

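Of 15 tested genes of the other glucose transporters and of glucose phosphorylation, KO replicate 3 lay more than 1.5 times above the other KO libraries in 6 and below them in 2, beside 13.1% and 12.6% of all genes. The genes named next were chosen after their values were seen. Slc2a1 lay at 427 CPM there, against 148 and 140 CPM in KO replicates 1 and 2 and 156 to 183 CPM in WT. The hexokinase gene Hk2 lay at 82.8 CPM there, against 32.5 and 33.7 CPM in KO replicates 1 and 2 and 40.8 to 46.3 CPM in WT. Pik3r1, the regulatory subunit of the insulin-activated lipid kinase, lay the other way, at 58.0 CPM against 191 and 214 CPM in KO replicates 1 and 2. In the same library fibroblast markers summed to 572 CPM, against 1573 to 1585 CPM in the other KO libraries, and skeletal muscle markers to 255 CPM against 17.5 to 17.9 CPM. The part of these cell types in the values was not tested.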
